A study of Mus musculus with 16 samples.

Results

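The transcripts described here are 9 genes commonly used to mark monocytes: Ly6c2, Lyz2, S100a4, F13a1, Ms4a6c, Fn1, Klf4, Fcgr3 and Fcgr1. They are a list of named genes and were looked up by symbol among the 13344 genes listed for the host bone marrow cells and the 15080 genes listed for the leukemia cells. All 9 were listed for the leukemia cells and 7 for the host cells, where S100a4 and Fcgr1 were not analysed here. All the listed members passed the filter on low values, a mean normalized count over 10. A normalized count is an estimated read count divided by the size factor of its library, so it is scaled for depth but not for gene length.

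Monocytes arise in the bone marrow from granulocyte-monocyte precursors, which also give rise to neutrophils, and leave it through the chemokine receptor Ccr2. Classical monocytes carry much Ly6C on their surface, while nonclassical, patrolling monocytes carry little. The transcription factors PU.1, C/EBP, Irf8 and Klf4 direct the lineage, and the mature cells take up antibody-coated particles through Fc gamma receptors.

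The model was BCR-ABL+, Arf-/- B-cell acute lymphoblastic leukemia (B-ALL), a line from a male mouse marked with a retroviral mCherry gene and sorted for it, of which 500000 cells were given to each C57BL/6J mouse by tail vein. Hosts were wild type (WT) or were Il6-/- (IL-6 KO), were 6 to 8 weeks old, and were not treated with a drug. Marrow was taken on day 8, its red cells were lysed, and mCherry+ cells (tumor) and mCherry- cells (stroma, meaning host marrow cells of all types) were sorted for RNA. Each of the 4 groups, WT tumor, IL-6 KO tumor, WT stroma and IL-6 KO stroma, had 4 libraries, and the same leukemia line went into both hosts, so the tumor groups differ in the host and not in the line.

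The normalized values do not give the read depth of each library, which is taken as unknown here. Across genes the median residual SD of the log2 values was 0.86 for stroma libraries and 0.21 for tumor libraries. The summed normalized count of all listed genes was 8805689 to 17470735 in WT stroma and 33973016 to 44191950 in IL-6 KO stroma. In tumor it was 38817792 to 44552085 in WT and 47267047 to 55592959 in IL-6 KO hosts. The cause of these differences in sums was not tested, and in tumor as in stroma they cannot be told apart from genotype. The summed normalized count of 12 B lineage genes was 138859 to 156862 in tumor and 655 to 1750 in stroma. The compartments were normalized separately, so these sums are not on a common scale and their ratio does not measure the purity of the sort. Stroma libraries were rich in erythroid transcripts, with sums of 54214 to 228187 over 11 genes, and only 6 of 12 mesenchymal and endothelial markers were listed there. Il6 itself was not analysed here, so the host genotype rests on the labels.

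Does the loss of host IL-6 go with a different level of monocyte transcripts in the mCherry+ sort? In tumor libraries, 4 of the 9 members rose in IL-6 KO hosts: Fn1, Ly6c2, F13a1 and Lyz2, by 2.50- to 11.1-fold between group means. For these 4 genes, and for none of the other 5, the lowest IL-6 KO library exceeded the highest WT library. Of all 14493 genes tested in tumor, 10.6% were called higher, 9.16% lower and 19.8% in either direction, 35.1% had an unadjusted p under 0.05 (6 of the 9 members), and in 13.6% the groups separated in this way. Calls are from limma on log2(normalized count + 1) with adjusted p under 0.05 (Benjamini-Hochberg over all genes tested), and fold changes on that scale understate the change of low genes. Of the 9 members, 8 had a log2 fold change above 0, with a median of 1.28, against a median of -0.01 over all genes. In these bulk samples more cells of a type and more RNA per cell cannot be told apart. Whether the transcripts came from the leukemia cells or from host myeloid cells within the mCherry+ sort was not tested either.

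Ly6c2 (chr15:75108158-75111970, GRCm38, minus strand) encodes the Ly6C surface protein that separates classical from nonclassical monocytes. Its normalized counts in WT tumor libraries 1 to 4 were 62.5, 83.1, 65.8 and 62.4, and in IL-6 KO tumor libraries 432, 373, 159 and 281. The lowest IL-6 KO library, number 3, lay well above the highest WT library. The log2 fold change was 2.08 ± 0.28 (SE, n = 4 per group, adjusted p = 0.0022 by limma). Ly6c1, a neighbour gene with 97.6% identity over 822 nt, could share reads with Ly6c2. Its own normalized counts were 2.73 to 14.0 in WT tumor and 0 to 30.7 in IL-6 KO tumor, and the split of reads between them is uncertain.

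Lyz2 (chr10:117277331-117282321, minus strand) encodes the lysozyme of myeloid cells and is also strong in neutrophils and macrophages. It was the most abundant member, at 1535, 1548, 1652 and 1528 normalized counts in WT tumor and 5089, 3949, 2479.9 and 4159 in IL-6 KO tumor. The WT libraries were nearly equal, with a CV of 3.72%, while the IL-6 KO libraries spread over a CV of 27.6%. Its log2 fold change was 1.28 ± 0.18 (adjusted p = 0.0026 by limma).

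F13a1 (chr13:36867178-37050244, minus strand), the catalytic A subunit of the clot-stabilizing factor XIII, is made by monocytes and some macrophages. WT tumor libraries had 165, 136, 117 and 94.1 normalized counts and IL-6 KO tumor libraries 491, 447, 176 and 358. IL-6 KO library 3 was only just above WT library 1, and the other 3 were well apart. The log2 fold change was 1.44 ± 0.31 (adjusted p = 0.0126 by limma).

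Fn1 (chr1:71585520-71653200, minus strand) encodes fibronectin, an extracellular matrix glycoprotein made by classical monocytes as well as by fibroblasts. It had the largest difference among the members, from 132, 159, 133 and 85.2 normalized counts in WT tumor to 1843, 2042, 238 and 1535 in IL-6 KO tumor. IL-6 KO library 3 again stood apart from the other 3, the lowest of which was 1535. The log2 fold change was 3.12 ± 0.60 (adjusted p = 0.0080 by limma), and without that library it was 3.84. Among the 4 IL-6 KO libraries Fn1 thus varied more (CV 57.4%) than Lyz2, F13a1 (37.9%) or Ly6c2 (38.2%).

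Klf4 and Ms4a6c had IL-6 KO means above the WT means without passing the test. Klf4 (chr4:55527143-55532466, minus strand), a zinc finger transcription factor needed for monocyte formation, had 214, 168, 162 and 215 normalized counts in WT tumor and 285, 333, 190.0 and 268 in IL-6 KO tumor. Only IL-6 KO library 3 overlapped the WT range, and the log2 fold change was 0.49 ± 0.19 (adjusted p = 0.097 by limma). Without that library Klf4 was called higher (log2 fold change 0.64, adjusted p = 0.033 by limma), making 5 members called. The number of all genes called in tumor also moved when 1 library was left out, from 1572 to 3328. Ms4a6c (chr19:11469366-11482192, plus strand), a membrane-spanning protein of monocytes and macrophages, had 19.9, 7.74, 38.1 and 35.8 normalized counts in WT tumor and 96.4, 61.0, 25.9 and 71.1 in IL-6 KO tumor. IL-6 KO library 3 fell inside the WT range and the other 3 lay above it, with a log2 fold change of 1.37 ± 0.54 (adjusted p = 0.101 by limma).

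The Fc gamma receptor members and S100a4 were not called. The split of reads between Fcgr3 and Fcgr2b, a similar gene described below with far higher counts, is uncertain. Fcgr3 (chr1:171051174-171064935, minus strand), a low-affinity IgG receptor also found on neutrophils and NK cells, had 47.5, 53.6, 20.5 and 20.2 normalized counts in WT tumor against 58.7, 72.7, 26.9 and 57.6 in IL-6 KO tumor, with IL-6 KO library 3 inside the WT range and the other 3 above it (log2 fold change 0.64, 95% interval -0.30 to 1.58). Fcgr1 (chr3:96282909-96293969, minus strand), the high-affinity IgG receptor of monocytes and macrophages, was the 1 member with a lower IL-6 KO mean, at 27.0, 79.6, 29.2 and 50.5 in WT tumor and 23.8, 31.4, 19.8 and 26.0 in IL-6 KO tumor. Its log2 fold change was -0.74, with a 95% interval of -1.56 to 0.08 (adjusted p = 0.180 by limma). S100a4 (chr3:90603771-90606045, plus strand), a calcium-binding protein of motile cells of many types, had 182, 356, 376 and 269.6 normalized counts in WT tumor and 319, 263, 229 and 378 in IL-6 KO tumor. The ranges of S100a4 largely coincided (log2 fold change 0.04, 95% interval -0.50 to 0.58). S100a4 shares 302 nt of identical sequence with Gm42674, an overlapping gene on the same strand that was listed at 11.9 to 120 normalized counts in tumor, so the split of reads between them is uncertain.

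**Figure D1:**
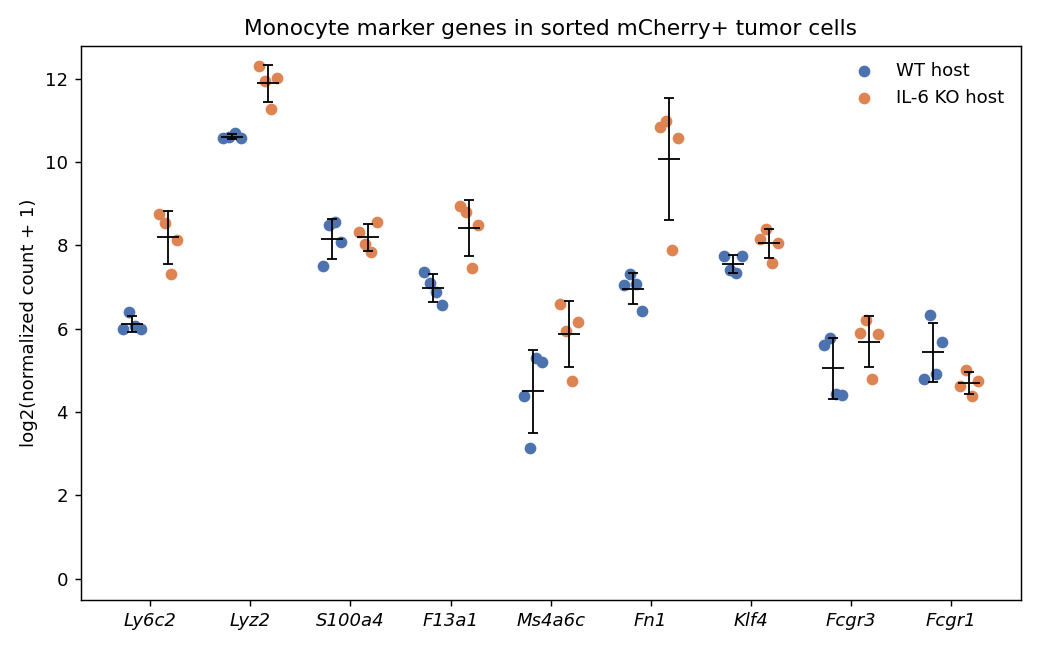
Normalized counts of the 9 genes in the mCherry+ tumor libraries, as log2(normalized count + 1) on the vertical axis. Each point is 1 library (blue, WT hosts; orange, IL-6 KO hosts; libraries 1 to 4 from left to right), and black bars give the mean and SD of 4 libraries. The IL-6 KO points of Ly6c2, Lyz2, F13a1 and Fn1 lie above all their WT points, with library 3 the lowest of each 4.

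The sequence upstream of the members was read because PU.1 and C/EBP, named above as factors of the lineage, bind short known motifs. RefSeq promoter entries (GRCm38.p6) were matched for 8 of the 9 members, and there was no match for Fn1. Within the 250 bases before the start, GAGGAAG, the core bound by PU.1, occurred on either strand in 4 of the 8 (Ly6c2, F13a1, Fcgr3 and Fcgr1), against 10.6% of 32851 mouse promoters. It began 108 bases before the start in Ly6c2, 66 in F13a1, 56 in Fcgr1 and 7 in Fcgr3. The Fcgr3 entry (chr1:171059404-171059653) lies inside the gene span given above, so its start is not the start of that span. Fcgr3 also held the C/EBP letters TTGCNNAA 28 bases before its start, found in 9.56% of promoters, and S100a4 a TATA box (TATAAA) 31 bases before its start, found in 12.4%. Lyz2, Ms4a6c and Klf4 held none of these letters, nor did any member hold the IRF element or the KLF letters CCNCACCC, which 2.98% and 14.9% of promoters hold. None of these motifs overlaps another in the members, and a match is a string of letters, not a measured binding site. The 120 bases just before the start are shown for 3 members with the PU.1 core in capitals, on the minus strand of chr15:75111972-75112091, chr13:37050245-37050364 and chr3:96293970-96294089, where Fcgr1 carries the core on the opposite strand and so reads as its reverse complement.
Ly6c2: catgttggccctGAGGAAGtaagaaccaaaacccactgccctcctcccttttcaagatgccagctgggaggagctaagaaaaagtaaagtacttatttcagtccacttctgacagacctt
F13a1: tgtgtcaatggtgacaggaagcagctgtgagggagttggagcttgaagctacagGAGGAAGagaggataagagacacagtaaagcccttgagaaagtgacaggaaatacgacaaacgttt
Fcgr1: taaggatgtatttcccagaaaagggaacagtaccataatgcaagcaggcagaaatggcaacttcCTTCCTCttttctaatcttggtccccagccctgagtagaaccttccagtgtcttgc

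In stroma libraries, none of the 7 listed members was called in either direction. The stroma groups also differed in their summed normalized counts, as given above, and this cannot be told apart from genotype. Across the 12202 genes tested there, 1 gene was called (0.0082%), which was lower in IL-6 KO, while 9.15% had an unadjusted p under 0.05. Of the 7 members, 1 (Lyz2) had an unadjusted p under 0.05, 5 had a log2 fold change above 0, and the median was 0.31. With 1 library left out that median ranged from 0.11 (without IL-6 KO library 4) to 0.61 (without IL-6 KO library 3), and it was 0.16 without WT library 1. For none of them did the groups separate, against 2.54% of all genes with the IL-6 KO libraries wholly above the WT libraries and 3.25% wholly below. The residual SD of the 7 members was 0.55 to 2.13 log2 units in stroma, against 0.29 to 1.07 for the 9 members in tumor.

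Lyz2 in stroma was 474, 598, 688 and 624 normalized counts in WT libraries 1 to 4 and 1649, 1093, 518 and 1415 in IL-6 KO libraries. IL-6 KO libraries 1, 2 and 4 were above every WT library and library 3 lay within their range, giving a log2 fold change of 0.86 ± 0.37 (unadjusted p = 0.0387, adjusted p = 0.520 by limma). Fn1 had 172, 330.1, 206 and 420.3 in WT stroma, against 367, 580.1, 150.1 and 632 in the IL-6 KO libraries. Here too library 3 was the lowest IL-6 KO library, and Fn1 had a log2 fold change of 0.51 ± 0.49. The labels do not say whether tumor and stroma libraries of the same number came from the same mouse. F13a1 was 155, 231, 192 and 284 in WT stroma and in the IL-6 KO libraries 198, 251, 138 and 664, so that its higher IL-6 KO mean rested on library 4. Without that library the log2 fold change of F13a1 was -0.14 in place of 0.31.

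Ly6c2 overlapped in part in stroma, at 29.2, 64.4, 76.3 and 90.4 normalized counts in WT and 54.0, 38.7, 131 and 93.9 in IL-6 KO libraries, with a log2 fold change of 0.24 ± 0.57. IL-6 KO libraries 3 and 4 were above every WT library, library 3 being the highest of all 8, and WT library 1 was below every IL-6 KO library. The remaining 3 members were low and noisy there. Klf4 was listed at 0 in WT library 1 and otherwise ranged from 5.43 to 82.7 in WT and from 8.86 to 79.4 in IL-6 KO stroma. Ms4a6c and Fcgr3 were both listed at 0 in IL-6 KO library 3, and in the other stroma libraries Ms4a6c was 3.28 to 44.9 and Fcgr3 20.8 to 58.9. Their 95% intervals for the log2 fold change were -1.10 to 4.31 for Klf4, -3.44 to 1.85 for Ms4a6c and -3.99 to 0.78 for Fcgr3, and the estimates moved with single libraries. The log2 fold change of Klf4 was 1.61, and 0.49 without WT library 1 or 2.62 without WT library 2. That of Fcgr3 was -1.61, and -0.31 without IL-6 KO library 3. Adjusted p for the 7 members was 0.520 to 0.922 by limma. Ms4a6c overlaps BE692007 on the opposite strand over 990 nt, which was listed at 2.18 to 38.2 in stroma. The reads are directional, and whether any were shared between these genes was not tested.

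**Figure D2:**
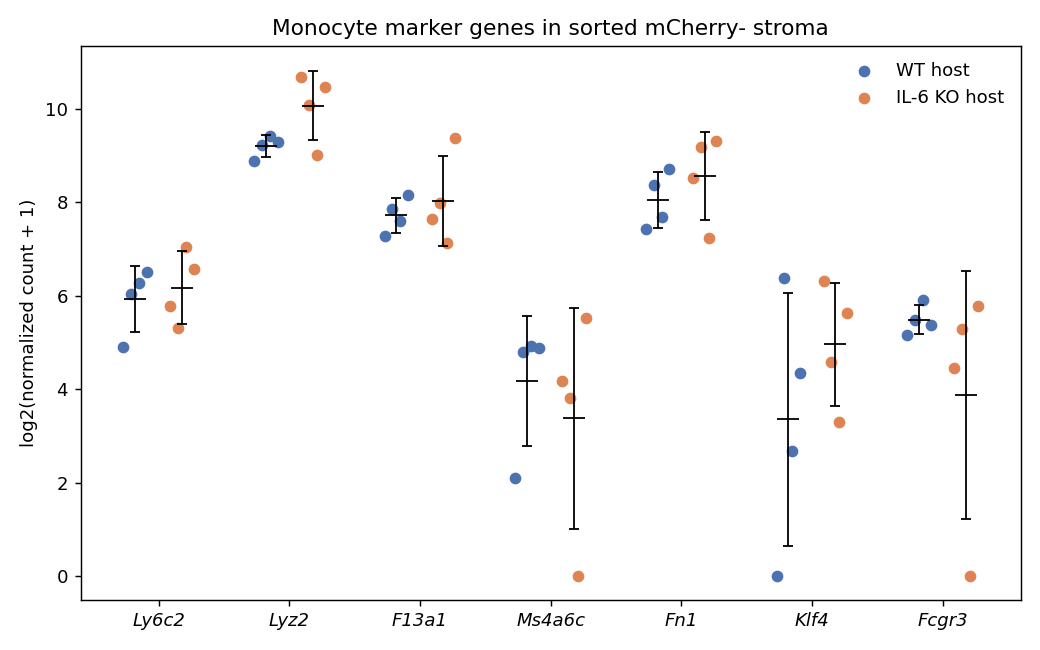
Normalized counts of the 7 listed genes in the mCherry- stroma libraries, as log2(normalized count + 1) on the vertical axis. Each point is 1 library (blue, WT hosts; orange, IL-6 KO hosts), and black bars give the mean and SD of 4 libraries. The groups overlap for all 7 genes, and the points at 0 are Klf4 in WT library 1 and Ms4a6c and Fcgr3 in IL-6 KO library 3.

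**Figure D3:**
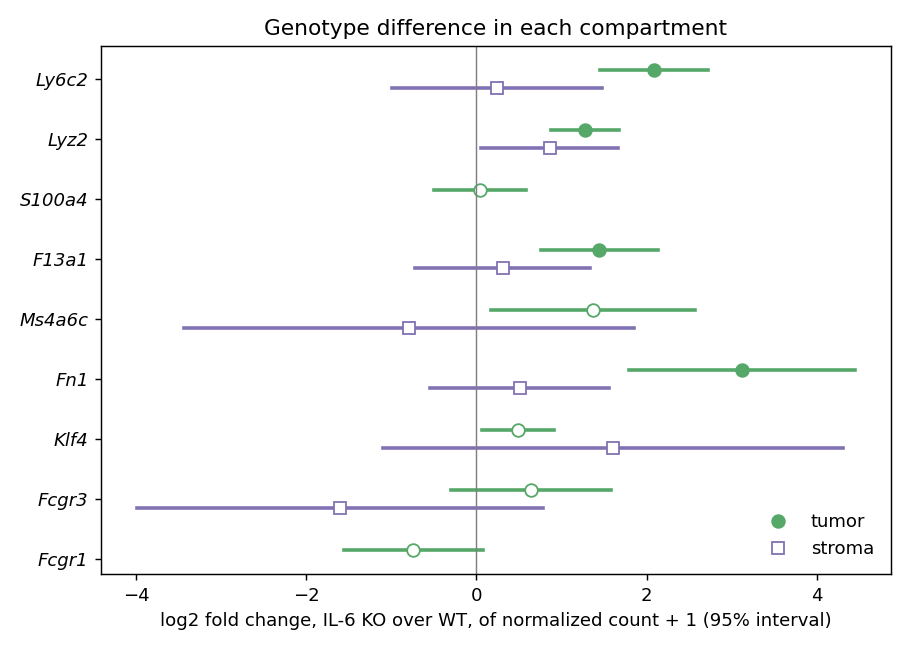
Log2 fold change of IL-6 KO over WT hosts for each gene (horizontal axis, log2 units of normalized count + 1), with its 95% interval from limma. Circles are tumor and squares stroma, and filled symbols have an adjusted p under 0.05: Ly6c2, Lyz2, F13a1 and Fn1 in tumor, at 1.28 to 3.12, and no gene in stroma.

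The genotype difference was not tested between the compartments, since their tables were normalized separately. Stroma intervals for Ly6c2 (-0.99 to 1.48), Lyz2 (0.05 to 1.67), F13a1 (-0.72 to 1.33) and Fn1 (-0.54 to 1.56) may be set beside the tumor intervals of 1.45 to 2.72, 0.87 to 1.68, 0.75 to 2.14 and 1.79 to 4.44 for the same genes. For Ly6c2 the 2 intervals just meet and for Fn1 they do not. For Lyz2 and F13a1 they overlap broadly.

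The level of each member was also read against the other genes of its own library, as log2(normalized count + 1) minus the median over the 11812 genes of both tables. In WT hosts, 6 of the 7 members stood higher in every stroma library than in every tumor library, against 32.4% of all genes. With the median over all genes of each table it was 5 of 7, with no share of all genes given. The mean differences of the 6 members were 2.02 (Lyz2) to 4.51 (Fn1). None of the 7 stood lower in every stroma library, against 27.3%. The exception to the 6 of 7 was Klf4, with a mean 0.78 lower in stroma on this scale and overlapping libraries. Its levels in WT stroma libraries 1 to 4 were -6.44, -0.04, -3.82 and -2.03, against -2.52 to -2.12 in WT tumor. Library 1 was listed at 0, so the direction for Klf4 is uncertain. In IL-6 KO hosts every stroma library stood above every tumor library for 2 of 7, Lyz2 (1.60) and F13a1 (3.02), near the share of all genes, 28.2%. Without IL-6 KO stroma library 3 it held for 5 of 7. Fewer libraries make this rule easier to meet for every gene, and the share of all genes without that library is not given. Fn1 went from 4.51 in WT to 1.90 in IL-6 KO hosts and Ly6c2 from 3.25 to 1.40. These levels are descriptions across separately normalized tables, with no test.

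**Figure D4:**
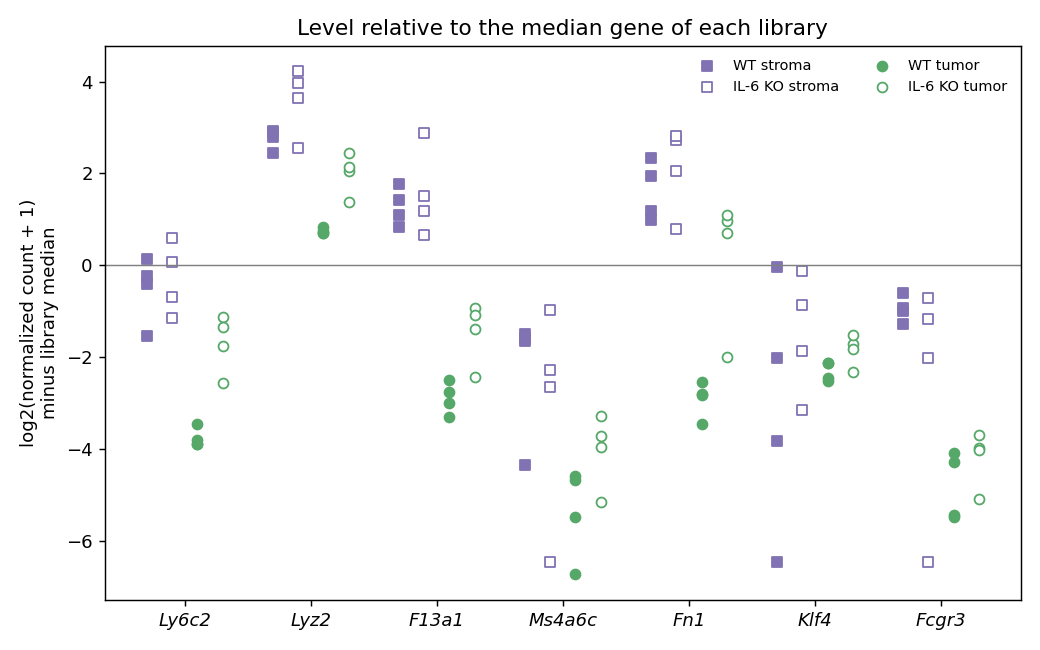
Level of the 7 genes listed in both compartments relative to the median gene of each library, in log2 units (vertical axis, 0 is the median). Squares are stroma and circles tumor, filled for WT and open for IL-6 KO hosts, and each symbol is 1 library. In WT hosts the stroma libraries lie above the tumor libraries for every gene except Klf4, whose stroma libraries spread from -6.44 to -0.04.

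Scaled to gene length (per kb), Lyz2 was the highest member in all 4 groups and stood apart from the next, at a mean of 2.54 log2 units above the library median in WT tumor, 3.83 in IL-6 KO tumor, 4.40 in WT stroma and 5.26 in IL-6 KO stroma. In tumor S100a4 came next in both hosts, at 1.25 and 1.31, and was also apart from its neighbours. Below it the order differed between hosts. In WT tumor it ran Klf4, Ly6c2, Fcgr3, F13a1, Fcgr1, Ms4a6c and Fn1, where Klf4 stood apart and the other 6 overlapped with their neighbours. In IL-6 KO tumor Ly6c2, Fn1, Klf4, F13a1, Fcgr3 and Ms4a6c followed S100a4, each overlapping with the next, and Fcgr1 was apart at the bottom. Fn1 per kb therefore moved from the last place of 9 (-4.26) to the fourth (-1.12). In stroma F13a1 came second in both hosts, and all neighbours after Lyz2 overlapped.

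The other monocyte genes were read from lists of surface and secreted products, transcription factors and gene families. In tumor, 12 of 34 surface and secreted genes were called higher and 1 lower, with a median log2 fold change of 0.60. Without IL-6 KO library 3, 15 were called higher. Counts without that library, here and below, have no share of all genes from the same fit beside them. The 4 with the smallest p were Plac8, Ccl9, Chil3 and Hp. Plac8, a small cysteine-rich protein also strong in lymphoid cells, was the gene that fell, from 9851 to 10684 normalized counts in WT to 5981 to 6968 in IL-6 KO tumor (log2 fold change -0.65). Ccl9, a chemokine of myeloid cells, rose from 7.87 to 10.0 in WT to 37.1 to 78.6 in IL-6 KO tumor (2.40). Chil3, a chitinase-like protein of monocytes and neutrophils, rose by 1.83 and Hp, the haemoglobin-binding haptoglobin, by 2.06 on the log2 scale. Ccr2, the receptor used to leave the marrow, named here after its values were seen, rose from 29.4 to 43.9 normalized counts in WT to 64.9 to 131 in IL-6 KO tumor (1.22 ± 0.26, adjusted p = 0.0126 by limma). Of the 10 nonclassical monocyte genes tested, 1 was called higher, Spn, a sialoglycoprotein of most leukocytes, by 0.18.

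Among 15 monocyte transcription factors, 2 were called higher in IL-6 KO tumor and none lower, with a median of 0.16, a share near the 10.6% of all genes called higher. Cebpa, which commits precursors to the granulocyte-monocyte line, rose from 9.87 to 22.4 normalized counts in WT to 52.3 to 98.4 in IL-6 KO tumor (2.20 ± 0.31, adjusted p = 0.0026 by limma). Irf8, which favours monocytes over granulocytes and is also expressed in B cells, rose by 0.38 from a far higher level, 3752 to 4382 in WT and 4684 to 5658 in IL-6 KO tumor. Cebpb, an inflammatory C/EBP factor, had a log2 fold change of 1.30 (adjusted p = 0.054 by limma), and without IL-6 KO library 3 the number called was 4.

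In the gene families of the members, 1 gene each was called higher in tumor, small counts beside the 10.6% of all genes, and for the S100 genes the count was 3 without IL-6 KO library 3. They were Fcer1g, the signaling chain shared by activating Fc receptors (log2 fold change 0.90), of 4 Fc receptor genes, Ms4a3, a marker of granulocyte-monocyte precursors (2.85), as the 1 Ms4a gene tested, S100a9, the neutrophil and monocyte alarmin (1.30), of 8 S100 genes, and Ly6g, the neutrophil surface marker (1.93), of 4 Ly6 and lysozyme genes. Fcgr2b, the inhibitory Fc receptor, which is strong in B cells and 96.3% identical to Fcgr3 over 512 nt, had 1467 to 1681 normalized counts in WT and 1341 to 1431 in IL-6 KO tumor (-0.15, adjusted p = 0.173 by limma). The split of reads between Fcgr2b and Fcgr3 is uncertain. In stroma no gene of these lists was called. Those with the smallest p there were Cebpa (1.42, unadjusted p = 0.0089), Tyrobp (1.13), Ms4a3 (2.77), Fcer1g (2.52) and Cx3cr1 (1.27), with adjusted p of 0.432 to 0.515 by limma.

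Markers of other myeloid cells moved with the members in the mCherry+ sort. Of 13 neutrophil genes tested, 10 were called higher and none lower in IL-6 KO tumor (median 1.38), and the summed normalized count of 14 genes went from 4871 to 5492 in WT to 7673 to 18776 in IL-6 KO tumor. IL-6 KO library 3 again had the lowest sum, and no marker of the list was at 0 in any tumor library. Ngp, a secondary granule protein, went from 920 to 1095 in WT to 2123 to 5242 in IL-6 KO tumor, and the iron-binding granule protein Ltf from 963 to 1394 in WT to 1472 to 4616. All 7 granulocyte-monocyte precursor genes were called higher (median 2.36), with sums of 326 to 479 in WT and 911 to 2053 in IL-6 KO tumor. Mpo, the myeloperoxidase of primary granules, had the highest level among them, at 159 to 257 in WT and 479 to 993 in IL-6 KO tumor. The part of these cells in the result of the members was not tested.

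Resident macrophage markers did not move that way. Of 10 genes tested in tumor, 2 had a log2 fold change above 0 and 8 below, 1 was called lower and none higher, and the median was -0.30. The gene called was Cd5l, a secreted protein of tissue macrophages, which fell from 86.8 to 125 normalized counts in WT to 38.4 to 58.5 in IL-6 KO tumor (-1.12). Summed over 11 genes the list was 1960 to 2276 in WT and 1849 to 2196 in IL-6 KO tumor. Of 12 B lineage genes, 1 was called higher (Vpreb1, a surrogate light chain, 0.53) and 2 lower (Ebf1, -0.30, and Cd22, -0.54). No gene was called in the T and NK (4 tested), dendritic (3), megakaryocyte (2) and basophil, mast and eosinophil (1) lists, and 1 gene was called lower in each of the erythroid (8) and the mesenchymal and endothelial (7) lists.

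In stroma 13 of 14 neutrophil genes had a log2 fold change above 0 (median 0.90) and none was called. The neutrophil sum was 8264 to 16125 in WT stroma, and the IL-6 KO libraries 1 to 4 had sums of 35469, 34411, 8676 and 32066, so that library 3 had the lowest neutrophil sum of that group, as it had the lowest summed level of the members, although not of Ly6c2. All 11 erythroid genes had a log2 fold change below 0 there (median -0.73), also with none called. Their sum was 132139 to 188997 in the WT libraries and 60399, 136208, 228187 and 54214 in IL-6 KO libraries 1 to 4, so library 3 had the highest sum of all 8, against the direction of the fold changes. The part of these cell types in the stroma values of the members was not tested.

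Within each library the members were also expressed as a percentage of S100a9, which removes the scaling of the library. S100a9 itself was called higher in IL-6 KO tumor, as given above. F13a1 was 8.80 to 14.9% of S100a9 in WT tumor and 12.1 to 15.5% in IL-6 KO tumor, and 6.52 to 13.2% and 4.80 to 17.4% in WT and IL-6 KO stroma. F13a1 thus lay in 1 range in all 4 groups. Fn1 was 7.96 to 14.9% of S100a9 in WT tumor, 6.98 to 19.5% in WT stroma and 8.87 to 16.6% in IL-6 KO stroma. In IL-6 KO tumor it was 17.1 to 58.3% of S100a9. As a percentage of Lyz2, Fn1 was 5.57 to 10.3% in WT tumor and 9.60 to 51.7% in IL-6 KO tumor. In stroma it was 29.9 to 67.4% of Lyz2 in WT and 22.3 to 53.1% in IL-6 KO hosts. The group that stood apart thus depended on the reference gene. Ly6c2 was 5.64 to 7.38% of S100a9 in WT tumor and 9.95 to 13.7% in IL-6 KO tumor, without overlap, and it was 1.92 to 4.19% in WT and 0.87 to 10.1% in IL-6 KO stroma.

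Other members changed less than S100a9 between hosts or kept another ratio to it in tumor than in stroma. Klf4 was 14.3 to 20.1% of S100a9 in WT tumor and 9.0 to 13.6% in IL-6 KO tumor, against 0 to 4.02% in WT stroma. Lyz2 was 132 to 185% in WT tumor and 107 to 178% in IL-6 KO tumor, and in stroma 23.3 to 31.2% and 24.5 to 39.9%. Fcgr1 was 2.43 to 6.78% of S100a9 in WT tumor and 0.75 to 1.42% in IL-6 KO tumor, also without overlap. The counts of Fcgr1 themselves overlapped, and a gene with a steady count would also fall as a percentage of S100a9, which rose. The share of all genes whose percentage of S100a9 separates the hosts is not given, so the separation of Fcgr1 or Ly6c2 has no background. These ratios are descriptions, with no test.

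**Figure D5:**
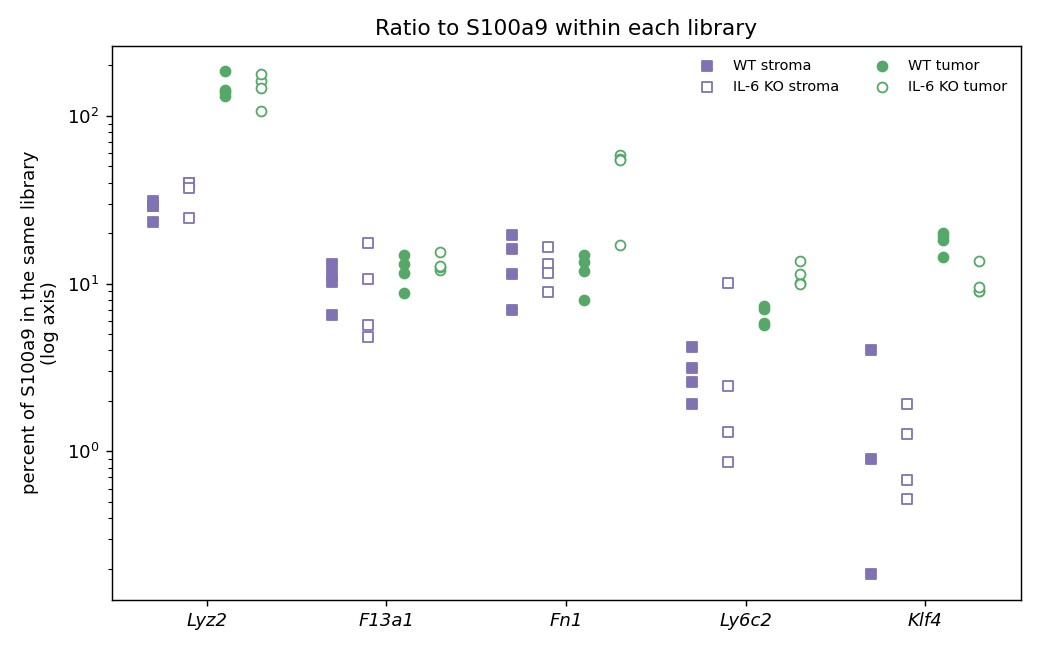
Normalized count of 5 members as a percentage of S100a9 in the same library (vertical axis, logarithmic). Squares are stroma and circles tumor, filled for WT and open for IL-6 KO hosts, and each symbol is 1 library; Klf4 in WT stroma library 1 is 0 and is not drawn. F13a1 lies between 4.80 and 17.4% in all 4 groups, while Fn1 in IL-6 KO tumor reaches 54.4 to 58.3% in 3 of 4 libraries.

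The genes whose pattern over the 8 tumor libraries was nearest to the mean pattern of the members were Sort1, Sphk2, S100a9, Cd33 and Rhob. Their root mean square difference from that pattern was 0.10 to 0.24 log2 units, against a median of 0.67 over 11232 genes with a mean over 50, and all 8 libraries share 1 normalization. Of the members themselves Lyz2 was nearest (0.17), and Fn1 farthest (1.17). In stroma the nearest were Fut8, Ptk2b, B430306N03Rik, Pgd and Gprasp1, at 0.18 to 0.27 against a median of 1.10 over 8073 genes. Members there lay 0.42 (Fn1) to 1.47 (Klf4) from their own mean.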

How the data were processed

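Normalized counts, a scaled coverage signal per gene that is not whole, were deposited by the authors for each compartment. The authors aligned directional, rRNA-depleted 75 nt single-end reads to mm10 with salmon 1.3.0 (GC and sequence bias corrected) and normalized the estimates with DESeq2 1.28.1, each compartment on its own. The authors' fold changes and p-values were also deposited and were not used. Libraries were grouped by their titles. Nothing states that libraries are separate mice, so p-values measure the spread between these samples, which may be technical.

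log2(normalized count + 1) of genes with a mean over 10 was tested, IL-6 KO against WT, with limma 3.58.1 (R 4.3.3; moderated variance following the mean, two-sided, Benjamini-Hochberg over all genes), separately for 12202 stroma and 14493 tumor genes. The script was tested on simulated data. Only 1.02 to 1.65% of values under 60 in stroma and 7.98 to 8.15% in tumor lay on whole steps of repeated low values. Whole reads were therefore not recovered. The authors state an approximate depth per sample, but the exact depth of each library is unknown and no counting intervals are given. Positions are from GENCODE vM21 (GRCm38), near-identical copies from BLAST 2.17.0.

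The genes named were the 9 members, from each related list up to 4 genes with the smallest p, from each cell type list up to 3 with the highest mean (plus a few called genes named after their values were seen), and the 5 nearest patterns per compartment. Members and lists were chosen with earlier results of these data known. Alternatives were pseudocounts of 0.5 and 5, no filter or a mean over 50, median centring, quantile normalization, array weights, a replicate block and leaving out each library.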

Additional observations from a re-analysis of the deposited data

Results flagged for a closer look

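In 32 groups of 4 libraries, 1 library stood far from the other 3 for 3 member values, where chance gives about 1 in 20 groups. Ly6c2 was 83.1 normalized counts in WT tumor library 2, above the other 3. Lyz2 was 1652 in WT tumor library 3, the highest of 4 values that were otherwise nearly equal. Ms4a6c was 3.28 in WT stroma library 1, below the other 3.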

How the results depend on the processing

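The number of tumor members called was 4 under every alternative with all libraries and 4 to 5 when 1 library was left out, and the number of stroma members called was 0 throughout. Genes called in tumor ranged from 1572 to 3328 with 1 library left out, the lower numbers without WT tumor library 2 (1784) or 3 (1713) or IL-6 KO tumor library 1 (1606) or 4 (1572). In stroma they ranged from 1 to 3 with 1 library left out (3 without WT library 3, 2 without IL-6 KO library 1 or 4) and were 4 with array weights. The members higher in stroma than in tumor in both hosts were 2, 1 with the median over all genes of each table, 3 with a pseudocount of 5, and 2 to 5 with 1 library left out, 5 without IL-6 KO stroma library 3. The sign turned for stroma Ly6c2 with array weights (-0.23), without WT library 1 (-0.10) and without IL-6 KO library 3 (-0.05), for stroma F13a1 without IL-6 KO library 4 (-0.14), for stroma Ms4a6c without IL-6 KO library 3 (0.33) and for tumor S100a4 without WT library 1 (-0.18), IL-6 KO library 1 (-0.0064) or IL-6 KO library 4 (-0.09), none of them called. With 1 library left out these 4 log2 fold changes ranged from -0.10 to 0.53, from -0.14 to 0.61, from -1.51 to 0.33 and from -0.18 to 0.17. Where a library was left out, its values made the change, and for the other settings the cause was not tested. The counts of other lists without library 3 of the IL-6 KO group were added after seeing the data. The tumor S100 list went from 1 to 3 called higher, and the transcription factors from 2 to 4. The share of all genes called higher without that library is not set beside them.

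Replicate numbers are shared by the hosts, but same-numbered libraries did not deviate together (correlations of -0.03 to 0.13 in stroma and -0.02 to -0.00028 in tumor), and no library was nearest to its own number. Tumor and stroma libraries of the same number were not compared in this way. With the replicate block 2230 genes were called in tumor and 1 in stroma, with 4 and 0 members called.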
